A study of Homo sapiens with 6 samples.

Results

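Chromatin accessibility was examined at 10 receptor genes whose levels mark the states between which melanoma cells move: AXL, NGFR, PDGFRA, PDGFRB, KIT, MET, ERBB3, ERBB4, FGFR1 and EDNRB. Peaks belonged to a gene when their centre lay in its GENCODE release 44 body, or when they were intergenic and its start was the nearest protein-coding start site. This gave 171 of the 152800 peaks of the atlas, and all 171 were among the 150117 peaks tested. Of these, 39 lay within 3 kb of an annotated transcript start of their own gene, internal starts included, 62 elsewhere in the gene body and 70 between genes. Another protein-coding gene model shared 9 of them, 5 at PDGFRA and 4 at FGFR1. The cells were A375, an established human melanoma cell line. Of the 6 libraries, 3 came from the empty vector control (EV) and 3 from HMGB2OE cells, a lentivirally transduced stable line that overexpresses HMGB2, a chromatin protein that bends DNA. Nuclei were treated with the Tn5 transposase, which cuts and tags open DNA, so that more reads in a peak mean more accessible chromatin. The study describes the libraries as technical replicates of an experiment that was not repeated, so every p-value given here measures the spread between these libraries only.

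KIT, MET, AXL, ERBB3, ERBB4, FGFR1, PDGFRA and PDGFRB are receptor tyrosine kinases, which pair on binding a ligand and start kinase cascades inside the cell. NGFR is the low-affinity neurotrophin receptor and EDNRB a G protein-coupled receptor for endothelins. In the melanocyte lineage, KIT, EDNRB and ERBB3 accompany the development and differentiated state of the cells, NGFR marks a neural crest-like state, and high AXL, often with PDGFRB, marks dedifferentiated, drug-tolerant cells.

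The libraries held 26910189 to 45645294 counts in peaks. At the targeted gene, the peak in HMGB2 coding exons at chr4:173332680-173333181 had normalized counts of 50, 25 and 21.1 in EV and of 102, 101 and 92.3 in HMGB2OE libraries (log2 fold change 1.67, with an adjusted p of 0.000113 by the edgeR quasi-likelihood F test). The other peak with HMGB2 coding bases also rose (log2 fold change 1.16). The HMGB2 peaks without coding bases did not, at −0.011 for the promoter peak and −0.028 for a distal one. Counts in coding exons can include reads from the introduced HMGB2 sequence, so they cannot be read as accessibility of the gene itself. Of 8 melanocyte lineage genes, 6 had a promoter peak, taken as the strongest within 3 kb of any transcript start of the gene. Such a peak can also lie near the start of another gene. PMEL was highest, at 3768 (mean of the 6 libraries), and so weighs most in the lineage sum below. The defining pigment genes TYR and DCT had no promoter peak in the atlas. The authors called peaks against public melanocyte data as the control, so a missing peak does not show that a promoter was closed. No lineage promoter peak was called, and their summed level ranged from 6511 to 7076 in EV and from 6482 to 6808 in HMGB2OE. Of 8 blood, endothelial and epithelial markers, 7 had a promoter peak, with CDH5 lacking one. Their summed level ranged from 1744 to 1797 in EV and from 1555 to 1686 in HMGB2OE. Single levels of the lists overlapped. MLANA (154) and TYRP1 (152) lay below KRT14 (587), CD3E (248) and EPCAM (217). MITF (1295) and SOX10 (862) lay above all of these, and PTPRC (151) and KRT5 (123) below them.

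Across the 10 receptors, accessibility rose most widely at KIT and fell at a pair of intronic sites of MET. A peak was called when its adjusted p-value was under 0.05, with the Benjamini–Hochberg adjustment over all tested peaks, and its fold change was at least 1.5. By this rule 5 of the 171 peaks were higher in HMGB2OE (2.92%, against 1.87% of all tested peaks) and 3 were lower (1.75%, against 1.44%). They belonged to 5 genes, and the other 163 peaks were not called. The shares were near those of the atlas, and the median log2 fold change of 0.0059 lay beside a median of −0.0049 over all tested peaks. All HMGB2OE libraries lay above all EV libraries at 30 peaks (17.5%, against 12.6% of tested peaks) and below them at 21 (12.3%, against 12.5%). Of the called peaks, 4 were intergenic, 3 lay in gene bodies and 1 near a start site of its own gene. Since whole cultures were assayed, a site open in fewer cells and a site less open in each cell cannot be told apart.

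**Figure D1:**
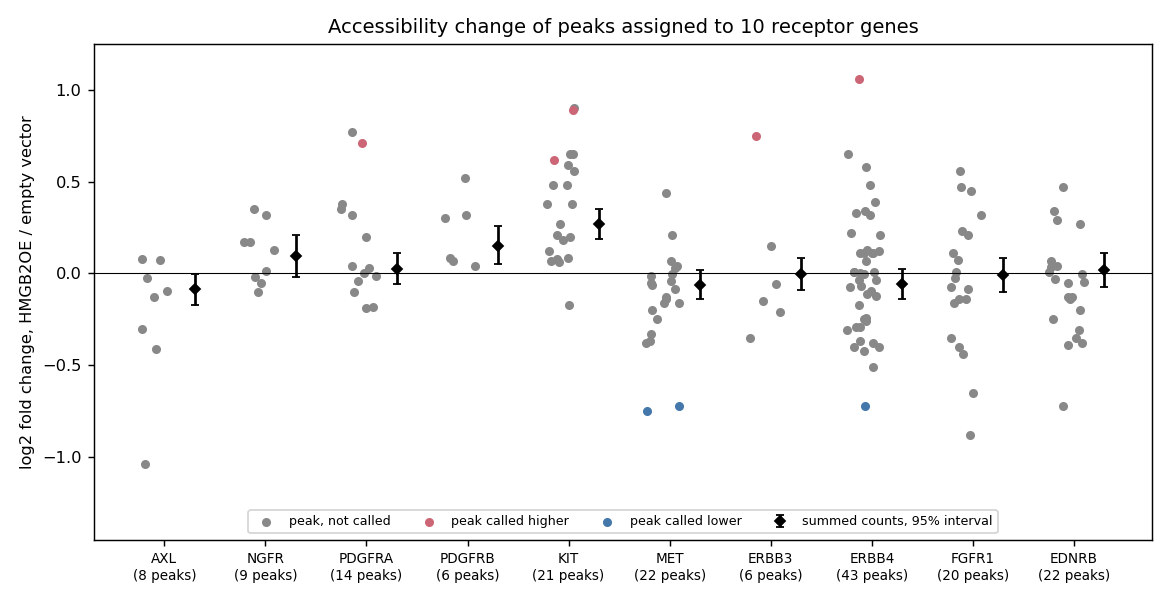
Each point is the log2 fold change (vertical axis) of HMGB2OE over EV libraries for 1 of the 171 peaks, by gene (horizontal axis), grey where not called, red where called higher and blue where called lower. Black diamonds are the fold changes of counts summed over all peaks of a gene with 95% confidence intervals, and the KIT interval, from 0.19 to 0.35, lies farthest above 0.

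The DNA of the 3 peaks that were called under every alternative setting, 1 at KIT and 2 at MET, and of the called peak downstream of PDGFRA is given as stretches of 240 bases from the hg38 plus strand, 5′ to 3′. The stretches are chr4:54586385-54586624 (KIT), chr7:116776759-116776998 and chr7:116692707-116692946 (MET) and chr4:54371290-54371529 (PDGFRA). Capitals mark matches, on either strand, to words for families of transcription factors: AP-1 (TGACTCA), MITF-type E-box (TCACGTG or TCATGTG), SOX (ACAAAGG or ACAATGG), TEAD (GGAATGT) and TFAP2 (GCCNNNGGC).
KIT, 70.8 kb before the start: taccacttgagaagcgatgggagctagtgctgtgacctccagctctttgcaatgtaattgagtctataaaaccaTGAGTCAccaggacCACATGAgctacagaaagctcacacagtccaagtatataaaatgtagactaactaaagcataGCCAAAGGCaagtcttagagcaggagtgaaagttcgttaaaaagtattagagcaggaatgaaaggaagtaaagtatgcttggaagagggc
MET, 105 kb after the start: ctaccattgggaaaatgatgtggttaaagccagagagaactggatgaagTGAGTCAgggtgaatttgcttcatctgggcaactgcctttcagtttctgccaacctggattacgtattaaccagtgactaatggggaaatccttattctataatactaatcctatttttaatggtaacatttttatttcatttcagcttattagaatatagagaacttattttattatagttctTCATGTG
MET, 20.6 kb after the start: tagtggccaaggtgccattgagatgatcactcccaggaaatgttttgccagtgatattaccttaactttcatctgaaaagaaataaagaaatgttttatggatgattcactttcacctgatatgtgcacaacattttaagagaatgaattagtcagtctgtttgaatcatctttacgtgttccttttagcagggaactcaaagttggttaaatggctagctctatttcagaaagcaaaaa
PDGFRA, 142 kb after the start: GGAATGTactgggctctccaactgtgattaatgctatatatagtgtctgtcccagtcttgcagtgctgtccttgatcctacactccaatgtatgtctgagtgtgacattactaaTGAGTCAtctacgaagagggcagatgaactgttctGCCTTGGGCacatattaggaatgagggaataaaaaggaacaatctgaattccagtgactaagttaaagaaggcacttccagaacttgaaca
The KIT stretch held an AP-1, an E-box and a TFAP2 word, in that order, and none of the matches overlapped another. The first MET stretch held an AP-1 and an E-box word, the second MET stretch none of the words, and the PDGFRA stretch a TEAD, an AP-1 and a TFAP2 word. Among the 8 called peaks, 4 held the AP-1 word, 2 each the E-box, TEAD and TFAP2 words, and 0 a SOX word. The words were about as frequent in the 171 receptor peaks as in all tested peaks, at 31.6% against 28% for AP-1, 8.19% against 9.98% for the E-box, 17.5% against 18.4% for SOX, 9.36% against 8.93% for TEAD and 20.5% against 19.4% for TFAP2. A match describes these letters and does not show that a factor binds.

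KIT is the receptor for stem cell factor and is required for the survival and migration of melanocyte precursors. Counts summed over its 21 peaks were 3849, 3979 and 4023 in EV libraries and 4789, 4667 and 4840 in HMGB2OE libraries. Every HMGB2OE library was thus above every EV library. The summed count rose by 0.27 on the log2 scale (standard error 0.0382, 1.21-fold, adjusted p = 0.000359 over 18297 genes by the same edgeR test). KIT was the only 1 of the 10 genes whose summed count passed an adjusted p of 0.05, in a background in which 5.74% of genes were called higher and 3.37% lower. The highest adjusted p of this sum in any alternative was 0.0062.

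The rise was spread along the locus. Of the 21 peaks, 20 had a log2 fold change above 0 (against 49.2% of all tested peaks), including 17 of the 18 intergenic ones. The median of the 21 was 0.38. At 12 of the 21 all HMGB2OE libraries lay above all EV libraries, against 12.6% of all tested peaks. When the called peaks were left out, a choice made after their values were seen and so given without a test, the other 19 peaks summed to 3696 ± 154 in EV and 4192 ± 66.7 in HMGB2OE (SD, n = 3 each), a log2 ratio of 0.18. The called pair held 7.35% of the summed EV count.

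The called KIT peak with the smaller p-value was the intergenic one 70.8 kb before the start, at chr4:54586254-54586755, whose AP-1, E-box and TFAP2 words are shown above. Its normalized counts were 165, 222 and 234 in EV libraries and 391, 370 and 399 in HMGB2OE libraries. The groups did not overlap, and the lowest HMGB2OE library was well above the highest EV library. It rose by 0.89 on the log2 scale (standard error 0.122, adjusted p = 4.56e-05), and its adjusted p was at most 0.000768 in any alternative. The second called peak, at chr4:54746156-54746657, lay 89.1 kb from the start and beyond the 3′ end of the gene. It had 110, 78.3 and 70.2 normalized counts in EV and 136, 128 and 129 in HMGB2OE, so that it was higher by 0.62 on the log2 scale (standard error 0.172, adjusted p = 0.0257). With DESeq2 it was not called (adjusted p = 0.0557), nor was it in 5 of the 6 fits that left out a library (adjusted p up to 0.117).

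Grouped by position, with limits chosen after the values were seen, the KIT peaks differed in level of change. The 3 peaks more than 150 kb before the start had log2 fold changes of −0.17 to 0.20, and no group separation at any of them. The 9 peaks from 144 to 70.8 kb before the start had values of 0.065 to 0.89, with a median of 0.48, and separated the groups at 6. Among these, chr4:54539533-54540034 had 281, 333 and 378 normalized counts in EV and 387, 425 and 490 in HMGB2OE (0.38, adjusted p = 0.0425), and chr4:54568111-54568612 had 188, 187 and 190 against 236, 250 and 250 (0.38, adjusted p = 0.0498). Both passed the adjusted p but not the fold limit. The strongest KIT peak, at chr4:54543084-54543585 between them, differed little, with 895, 966 and 916 against 1029, 910 and 969 (0.065, adjusted p = 0.711). The 4 peaks near the start and inside the gene had values of 0.081 to 0.59 and the 5 beyond its end values of 0.18 to 0.90. The peak with 0.90, 125 kb from the start, held 18.1, 35.3 and 36.3 counts in EV and 68, 57.6 and 43.9 in HMGB2OE and narrowly missed the threshold (adjusted p = 0.0542).

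Farther from KIT the median change had the opposite sign. Outside the receptor peaks, 77 tested peaks within 1 Mb of the gene had a median log2 fold change of −0.071. All 77 lay more than 200 kb from the gene, since the nearer tested peaks all belonged to the receptors. Of the 77, 0 were called higher (against 1.87% of all tested peaks) and 4 lower (against 1.44%). The flanking gene KDR, a receptor for vascular endothelial growth factor 338 kb away, fell in its summed count (−0.17, adjusted p = 0.0308). On the other side lay PDGFRA, whose summed count differed by 0.024 (adjusted p = 0.746).

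**Figure D2:**
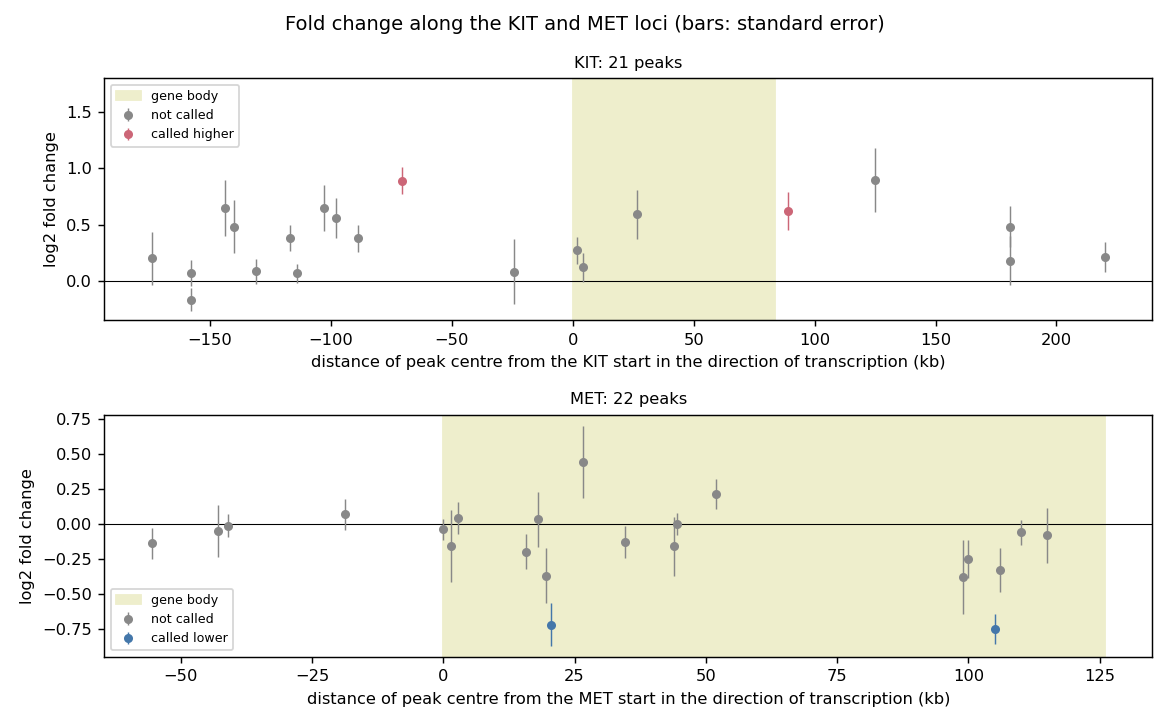
Log2 fold change of HMGB2OE over EV (vertical axis, bars are standard errors) against the distance of each peak centre from the gene start in kb (horizontal axis), for the 21 KIT peaks and the 22 MET peaks, with the gene body shaded. At KIT 20 points lie above 0, and at MET the called points lie 20.6 and 105 kb into the gene.

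MET, the receptor for hepatocyte growth factor, promotes invasive growth. Accessibility fell at sites within its introns while its start site changed little. The intronic peak at chr7:116776554-116777055, 105 kb into the gene, had 531, 574 and 462 normalized counts in EV libraries and 321, 318 and 290 in HMGB2OE libraries. Every HMGB2OE library was below every EV library, and the count fell by 0.75 on the log2 scale (standard error 0.106, adjusted p = 6e-05, at most 0.000951 in any alternative). The intronic peak at chr7:116692576-116693077, 20.6 kb into the gene, had 213, 188 and 156 in EV and 108, 128 and 99.1 in HMGB2OE. These groups did not overlap either, and the count fell by 0.72 on the log2 scale (standard error 0.151, adjusted p = 0.00355, at most 0.0262 in any alternative).

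Peaks beside the called ones gave smaller values in the same direction. The nearest peaks to them, at chr7:116777550-116778051 and chr7:116691578-116692079, had log2 fold changes of −0.33 (adjusted p = 0.217) and −0.37 (adjusted p = 0.297), and their groups overlapped. Of all 22 MET peaks, 17 were below 0, among them 11 of the 13 gene body peaks away from a start site. The exceptions included a peak 26.6 kb into the gene with 33.4, 43.9 and 36.3 in EV and 54.4, 54.2 and 46.2 in HMGB2OE (0.44, adjusted p = 0.345). The start site peak, at chr7:116671878-116672379, had 1516, 1746 and 1652 in EV and 1579, 1621 and 1586 in HMGB2OE (−0.04, adjusted p = 0.818). The summed MET count was 7762 ± 227 in EV and 7443 ± 118 in HMGB2OE (SD, n = 3 each; −0.061, adjusted p = 0.321). With peaks near start sites left out of the sum, its log2 fold change was −0.14 and passed the test (adjusted p = 0.0428). Without its called pair, the other 20 peaks summed to 7133 ± 406 in EV and 6935 ± 88.5 in HMGB2OE.

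**Figure D3:**
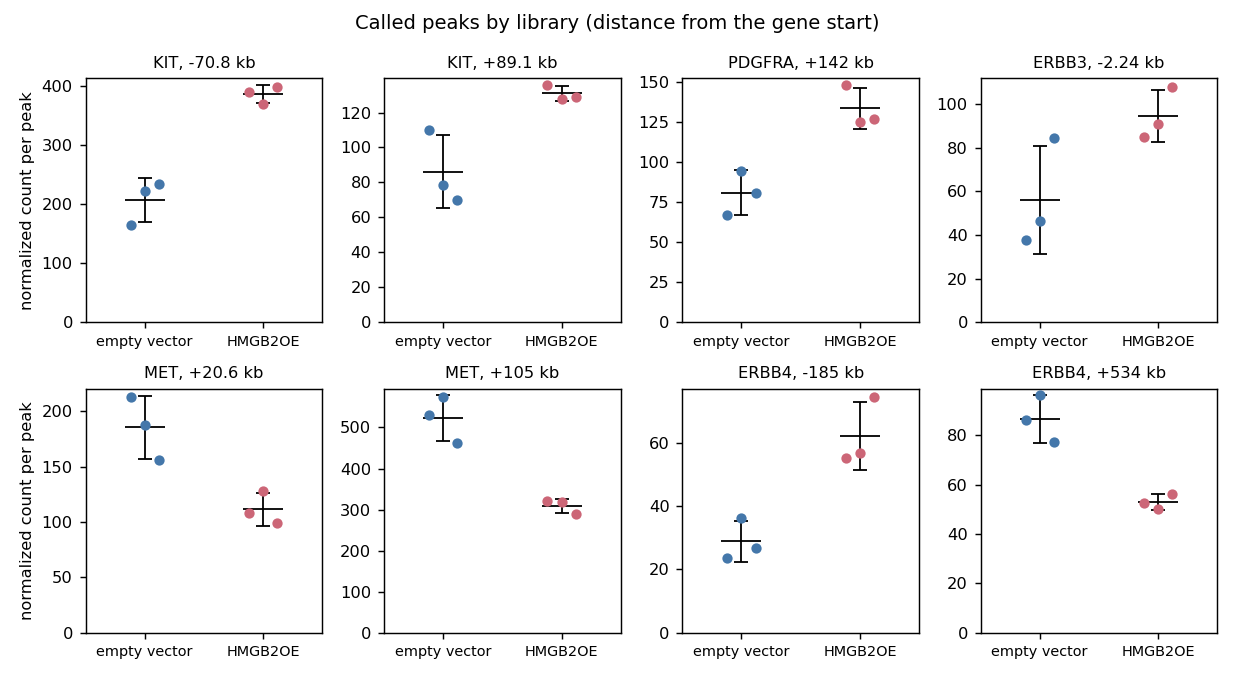
Normalized counts (vertical axis) of the 8 called peaks in each EV library (blue) and HMGB2OE library (red), with the mean (long line) and SD (bars, n = 3). No panel has overlapping groups, and the gap is narrowest at ERBB3, where EV replicate 3 at 84.3 lies just under HMGB2OE replicate 1 at 85.

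PDGFRA and PDGFRB are the receptors for platelet-derived growth factors. At PDGFRA, 1 of 14 peaks was called, at chr4:54371220-54371721, 142 kb after the start in the interval between PDGFRA and KIT. It had 66.7, 94.6 and 80.7 normalized counts in EV and 148, 125 and 127 in HMGB2OE, with no overlap (log2 fold change 0.71 with a standard error of 0.169, adjusted p = 0.00994). Without HMGB2OE replicate 1 the call was lost (0.63, adjusted p = 0.0758). Of the 9 intergenic peaks assigned to PDGFRA, 5 had log2 fold changes above 0 and 4 below. The strongest of these 9, at chr4:54439881-54440382, had 912, 935 and 954 in EV and 910, 891 and 809 in HMGB2OE (−0.10, adjusted p = 0.529), and that at chr4:54400891-54401392 was lowest in HMGB2OE replicate 3, at 603 against 850 and 783 in the others of its group. The strongest peak inside the gene, at chr4:54233087-54233588, had a log2 fold change of 0.00046. The 82 other peaks within 1 Mb, a window that overlaps the one around KIT, had a median of −0.10. Of these 82, 5 were called lower (against 1.44% of all tested peaks).

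None of the 6 PDGFRB peaks was called, but all had log2 fold changes above 0, from 0.042 to 0.52. The summed count was 1595, 1765 and 1744 in EV and 1838, 1912 and 1949 in HMGB2OE, with no overlap (0.15, standard error 0.0505, adjusted p = 0.0625). The peak with the smallest p-value, at chr5:150129787-150130288 in the gene body, had 186, 165 and 184 against 215, 230 and 221 (0.32, adjusted p = 0.123). Both neighbouring genes had higher summed counts: CSF1R, the receptor for macrophage colony-stimulating factor, whose gene lies 0.467 kb from PDGFRB (0.30, adjusted p = 0.00169), and CDX1, a homeobox gene on the other side (0.25, adjusted p = 0.047). Over the wider region of 252 peaks within 1 Mb the median was 0.00085.

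AXL, the receptor for GAS6, had 8 peaks, none called and 6 below 0. The peak 4.47 kb into the gene, at chr19:41223443-41223944, fell from 723, 806 and 820 in EV to 699, 616 and 599 in HMGB2OE, passing the adjusted p (−0.30, standard error 0.0906, adjusted p = 0.0446) without reaching the fold limit. The groups did not overlap, but in some alternatives the adjusted p was as high as 0.16. The strongest AXL peak, at chr19:41225827-41226328, had 1683, 1811 and 1665 against 1583, 1588 and 1536 (−0.13, adjusted p = 0.312). The lowest log2 fold change of all 171 peaks, −1.04, belonged to a weak AXL peak 35.7 kb into the gene, with 30.6, 41.3 and 22.2 against 11.9, 17.5 and 16.9 (adjusted p = 0.104). Summed AXL counts were 3719, 3738 and 3614 in EV and 3496, 3522 and 3402 in HMGB2OE, which did not overlap, yet the sum did not pass the test (−0.087, 95% confidence interval −0.17 to −0.0046, adjusted p = 0.174). The sums of KIT, PDGFRB and ERBB4 did not overlap either, and how often this held over all genes was not counted. The 223 other peaks within 1 Mb of AXL had a median of −0.078, beside a median of −0.11 over the 8 AXL peaks. For the 41 other peaks within 200 kb the median was −0.047.

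NGFR had 9 peaks, none called. Its start site peak, at chr17:49495013-49495514, had 496, 493 and 542 in EV and 460, 480 and 485 in HMGB2OE (−0.10, adjusted p = 0.581). The peak with the smallest p-value, 20.1 kb from the start at chr17:49515137-49515638, had 371, 453 and 518 against 472, 459 and 593 (0.17, adjusted p = 0.415), and the groups overlapped. HMGB2OE replicate 3 was the highest library at all 4 intergenic NGFR peaks. At the peak 12.6 kb before the start it held 167 normalized counts, against 80.8 and 65.9 in the other HMGB2OE libraries and 71.4 to 88.9 in EV. The summed log2 fold change of 0.096 (adjusted p = 0.297) was 0.026 in the lowest of the fits that left out a library.

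ERBB3 and ERBB4 are receptors for neuregulins, and ERBB3, with little kinase activity of its own, signals through its partners. At ERBB3, 1 of 6 peaks was called, at chr12:56074306-56074807, 2.24 kb before the start. It had 37.5, 46.5 and 84.3 in EV and 85, 90.9 and 108 in HMGB2OE (log2 fold change 0.75 with a standard error of 0.229, adjusted p = 0.0454). The call was lost in 8 of 15 alternatives, with adjusted p up to 0.195, while without EV replicate 3, the highest of its group, the log2 fold change was 1.14. The 3 strong ERBB3 peaks from 2.4 to 6.34 kb after the start went in differing directions, none past the test, with −0.057, −0.21 and 0.15. Their values offset in the sum, which was 3357 ± 105 in EV and 3349 ± 65 in HMGB2OE (SD, n = 3 each; −0.0029, 95% confidence interval −0.089 to 0.084).

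ERBB4, which spans 1163 kb, had the most peaks, 43. An intergenic peak at chr2:212723163-212723664, 185 kb before the start, rose from 23.6, 36.1 and 26.9 in EV to 55.3, 56.7 and 74.3 in HMGB2OE. This was the highest log2 fold change of the 171 peaks, 1.06 (standard error 0.267, adjusted p = 0.0141), and it was lost without HMGB2OE replicate 3 (0.93, adjusted p = 0.0833). An intronic peak at chr2:212005084-212005585, 534 kb into the gene, fell from 86.2, 96.4 and 77.2 to 52.7, 50 and 56.3 (−0.72, standard error 0.202, adjusted p = 0.0289), a call lost with DESeq2 (adjusted p = 0.0622) and in 5 of the 6 fits that left out a library. The strongest ERBB4 peak, at chr2:212451746-212452247, passed the adjusted p but not the fold limit, with 353, 404 and 410 against 324, 297 and 263 (−0.40, adjusted p = 0.0274). At the start site, chr2:212538846-212539347, the libraries held 156, 156 and 142 in EV and 113, 127 and 107 in HMGB2OE, which did not overlap, although the test was not passed (−0.38, adjusted p = 0.119). In a group of 4 intronic peaks 759 to 764 kb into the gene, the summed counts were 407, 279 and 408 in EV and 347, 249 and 629 in HMGB2OE, so that the libraries varied more within groups than between them. Over the whole gene 21 peaks were above 0 and 22 below. Summed ERBB4 counts were 3766, 3678 and 3687 in EV and 3587, 3492 and 3610 in HMGB2OE. These did not overlap, but the sum did not pass the test (−0.058, adjusted p = 0.369).

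FGFR1, a receptor for fibroblast growth factors, and EDNRB had 20 and 22 peaks and no call. The FGFR1 peak with the smallest p-value, 4.33 kb before its start, had 117, 126 and 121 in EV and 169, 163 and 165 in HMGB2OE, with tight groups that did not overlap (0.45, standard error 0.14, adjusted p = 0.0507). By contrast, all 5 FGFR1 peaks near its own start sites were below 0, from −0.44 to −0.083, and 7 of its 9 intergenic peaks were above 0, so that the sum differed by only −0.0067 (adjusted p = 0.938). For EDNRB the smallest p-value was at chr13:77891403-77891904, 83.9 kb from the start and past the end of the gene, with 125, 115 and 86.6 in EV and 135, 149 and 170 in HMGB2OE (0.47, adjusted p = 0.0733). Its summed count differed by 0.018 (adjusted p = 0.826). Unlike EDNRB itself, the 51 other peaks within 1 Mb of it had a median of 0.19. Of these 51, 41 were above 0 (80.4%, against 49.2% of all tested peaks) and 3 were called higher (against 1.87%).

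**Figure D4:**
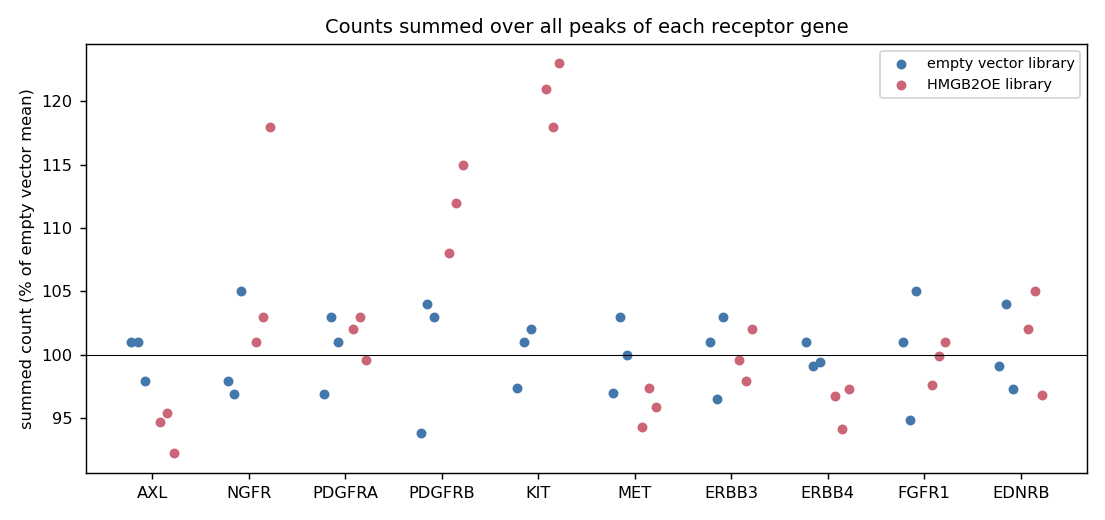
Counts summed over all peaks of each gene, as a percent of the mean of the EV libraries (vertical axis, which does not start at 0), for each EV library (blue) and HMGB2OE library (red). KIT in HMGB2OE libraries lies at 118 to 123%, and at NGFR HMGB2OE replicate 3 stands at 118% above 101 and 103% in the other libraries of its group.

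The level of accessibility near the start sites differed far more between the genes than between the conditions. Since nearly all peaks had the same width, the strongest peak within 3 kb of any transcript start of each gene could be set side by side as a normalized count per peak, without correction for GC content. AXL (1644, mean of the 6 libraries) and MET (1617) were highest, followed by ERBB3 (1292), PDGFRB (781), FGFR1 (673), EDNRB (506), NGFR (493), PDGFRA (408), KIT (274) and ERBB4 (133). Ranges over libraries overlapped between AXL and MET, PDGFRB and FGFR1, EDNRB and NGFR, and NGFR and PDGFRA, and the other neighbours in this order were separate. The order depends on counting internal transcript starts. The ranked peak lay 6854 bp after the gene start at AXL, 43216 bp after it at PDGFRB and 56569 bp after it at EDNRB. The peaks at the gene starts themselves had means of 473 at AXL (chr19:41218847-41219348), 619 at PDGFRB (chr5:150155537-150156038) and 173 at EDNRB (chr13:77975178-77975679). These would place AXL below NGFR, PDGFRB below FGFR1 and EDNRB below KIT. Gene start here means the outermost start of the gene model, and which start the cells use most was not tested. Among the strongest promoter peaks of all protein-coding genes, AXL was at percentile 88.7, KIT at 21.8 and ERBB4 at 11.8.

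Of these 10 strongest peaks, that of PDGFRB alone passed the adjusted p. The peak, at chr5:150112406-150112907, lies beyond the 3′ end of the gene, near an internal transcript start and inside CSF1R, so it is not among the 171. It had 623, 678 and 770 in EV and 899, 847 and 871 in HMGB2OE (0.34, adjusted p = 0.02), under the fold limit. The peak at the main PDGFRB start, at chr5:150155537-150156038, had 552, 633 and 628 against 616, 683 and 601 (0.066, adjusted p = 0.743). The PDGFRA promoter peak, 1184 bp before its start, lies in an overlapping gene model and is likewise not among the 171. It had 395, 382 and 377 against 388, 466 and 437 (0.16, adjusted p = 0.387). The KIT promoter peak, with 224, 253 and 269 in EV and 272, 307 and 322 in HMGB2OE, had the same sign as the locus and no overlap but did not pass (0.27, standard error 0.117, adjusted p = 0.184).

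**Figure D5:**
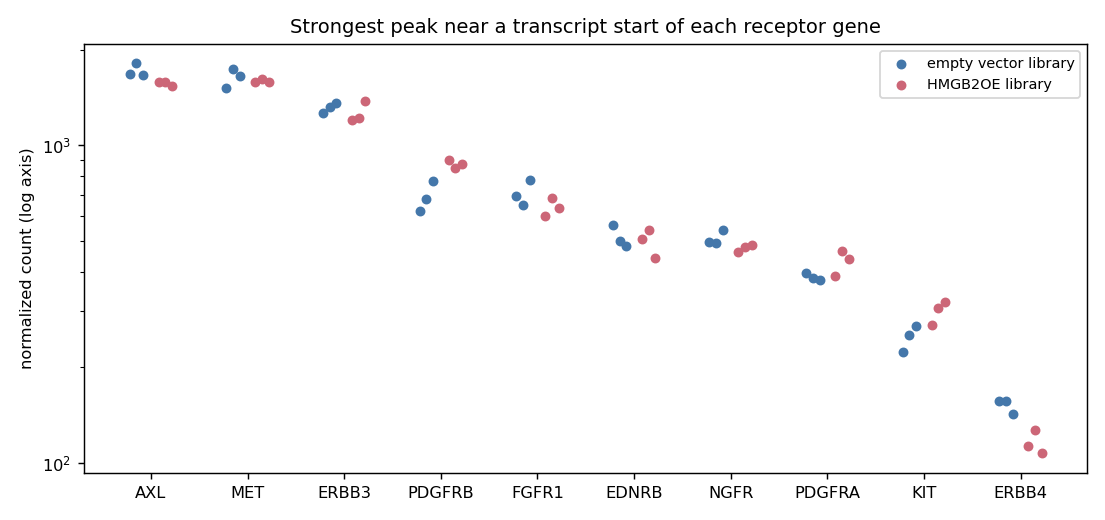
Normalized count (vertical log axis) of the strongest peak near a transcript start of each gene, in order of the mean, for each EV library (blue) and HMGB2OE library (red). The genes span means of 1644 at AXL to 133 at ERBB4. All HMGB2OE libraries lie above all EV libraries at PDGFRB and KIT (as at 12.6% of all tested peaks). They lie below them at AXL, NGFR and ERBB4 (as at 12.5%). The peak shown for PDGFRB lies inside CSF1R.

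The genes that encode the ligands of these receptors had more peaks called lower than higher. Of 387 tested peaks of 19 ligand genes, 3 were called higher (0.775%, against 1.87% of all tested peaks) and 18 lower (4.65%, against 1.44%), with a median log2 fold change of −0.014 against −0.0049. The falls were spread over 10 genes. NRG1, a ligand of ERBB3 and ERBB4, had 66 peaks, of which 4 intronic ones fell (log2 fold changes of −0.67 to −0.93) and 1 rose. NRG3, a ligand of ERBB4, had 3 called lower of 26, and its peak at chr10:82866407-82866908 went from 181, 190 and 161 to 73.1, 101 and 83.3 (−1.05, adjusted p = 0.000116). HGF, the MET ligand, had 3 called lower of 24, with log2 fold changes of −0.64, −0.65 and −1.28. KITLG, which encodes the KIT ligand, had 0 called of 21. In summed counts, named after their values were seen, GAS6 (0.15, adjusted p = 0.042), PDGFD (0.27, adjusted p = 0.0162) and EDN2 (0.19, adjusted p = 0.044) were higher and NRG3 was lower (−0.17, adjusted p = 0.0142).

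Related receptors and co-receptors had 205 tested peaks in 15 genes, with 7 called higher (3.41%, against 1.87% of all tested peaks) and 5 lower (2.44%, against 1.44%). The median log2 fold change was 0.097, against −0.0049 over all tested peaks. The neurotrophin receptor NTRK2 had 3 peaks called higher, with log2 fold changes of 0.64, 0.73 and 0.83, and none lower. NTRK3, of the same family, had 1 higher (1.02) and 2 lower (−0.59 and −1.06). MERTK, of the AXL family, had 3 called intronic peaks of both directions (0.65, −0.65 and −1.47). Summed counts were higher at SORT1, a partner of NGFR (0.22, adjusted p = 0.0132), and at CSF1R.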

How the data were processed

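ATAC-seq reads of 6 A375 libraries (3 EV, 3 HMGB2OE, grouped by the genotype label) were processed by the authors. After trimming, Bowtie 2 alignment to hg38 and duplicate removal, MACS2 peaks (with public melanocyte data as the control) were merged into 1 atlas, and the authors deposited raw featureCounts counts per peak, without normalization. The submitters' processing notes name bcl2fastq 2.17, Trim Galore 0.6.7, cutadapt 4.0 and FastQC 0.12.1. A shift for Tn5 insertion and the handling of reads with several alignments are not given in the sources used here, and the latter could change counts in repeats.

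The test used edgeR 4.0.16 under R 4.3.3 (TMM, filterByExpr, quasi-likelihood F test, no covariate). Summed counts were fitted likewise over 18297 genes, called at an adjusted p under 0.05 with no fold limit. For normalized counts, each count was scaled by its effective library size relative to the mean size. Standard errors are the size of the log2 fold change over the square root of F. Chi-square per degree of freedom between replicates of a group was 2.49 to 4.65, above sampling noise. Each library was counted separately, although this spread does not show that the libraries are independent. The scripts were tested on simulated data.

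The receptors, the lists of ligands, related receptors and markers, and the motif words were chosen with earlier results of these data known. Named were all 10 receptors with their strongest promoter peak and summed count, every called peak (or, where a gene had none, that with the smallest p-value), and the 6 listed genes with the most called peaks, at least 2 each. Peaks named beyond this rule were chosen after their values were seen. Of the 18 alternatives for peaks and 14 for genes, the kinds were other scalings (library size, DESeq2 size factors, loess trend), the DESeq2 1.42.0 Wald test, count filters, replicate block, GC offsets, left-out libraries, fold limits, assignment by nearest start site and sums without promoter peaks. Sums without the called peaks were added after seeing the data. The result of 1 marker of other cell types is not reported here on its own.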

Additional observations from a re-analysis of the deposited data

How the results depend on the processing

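The rises of the KIT sum and of the KIT peak 70.8 kb before its start, and the falls of both MET peaks, stayed past the threshold in every alternative run. Peaks called higher numbered 3 with DESeq2 and 3 to 4 with a library left out, against 5, and those called lower 5 with no fold limit and 2 to 3 with a library left out, against 3. Ligand peaks called higher were 5 with GC offsets and 1 to 5 with a library left out, against 3. Those called lower were 13 with GC offsets, 14 with DESeq2 and 12 to 18 with a library left out, against 18. Related receptor peaks ranged from 3 to 7 (higher) and 1 to 6 (lower) with a library left out. With promoter peaks left out of the sums, 1 gene was called lower, MET, and the sums of PDGFRA (−0.019), FGFR1 (0.13) and EDNRB (−0.0028) changed sign without passing the test. Assignment to the nearest start site gave 0.026 for FGFR1. With a library left out, sums ranged from −0.029 to 0.016 at ERBB3, −0.046 to 0.027 at FGFR1 and −0.0078 to 0.049 at EDNRB, on both sides of 0. Same-numbered libraries of the groups correlated by −0.0886, 0.185 and 0.125, so the numbers were not taken to pair them, and not every library correlated best with its own number. With the replicate block, 2 genes were called higher instead of 1, PDGFRB being added (0.16, adjusted p = 0.0278), and with the block and GC offsets together 6 ligand peaks were called higher. The cause of these moves was not tested. With 3 libraries a group, the weakest peaks had wide standard errors, up to 0.402 at an FGFR1 peak, so a missed threshold there does not show that accessibility was equal.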
